A study of Homo sapiens with 6 samples.

Results

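Phosphatidylcholine (PC) and phosphatidylethanolamine (PE) are the main phospholipids of human cell membranes, and 10 genes of their synthesis were followed here in melanoma cells whose methionine was degraded by an enzyme. The genes are PEMT, SLC44A1, CHKA, CHKB, PCYT1A, PCYT2, CEPT1, CHPT1, PISD and ETNK2, chosen by name out of 58523 genes with summed counts. All 10 passed the filter on low counts. The cells were A375, an established human melanoma line obtained from ATCC and grown in Dulbecco's modified Eagle's medium with fetal bovine serum. The control group held 3 untreated cultures, control replicates 1 to 3. The treated group held 3 cultures exposed for 24 h to hMGL, a human enzyme engineered to break down methionine with high activity, treated replicates 4 to 6. The dose of hMGL is not given in the sources used here, no vehicle or inactive enzyme is described for the control cultures, and all results are from 1 cell line at 1 time.

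PC is made along the CDP-choline route, in which choline enters the cell, is phosphorylated by a choline kinase, is activated by a cytidylyl transferase and is joined to diacylglycerol by a phosphotransferase. PE is made along the parallel CDP-ethanolamine route and, in mitochondria, by removal of a carboxyl group from phosphatidylserine. PEMT links the lipids by methylating PE to PC with S-adenosylmethionine, the methyl donor that cells make from methionine. PEMT is best known from liver, where it gives a large share of the PC.

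RNA of 6 libraries was quantified per transcript, with 50760266 to 59954677 estimated counts in a library. Of the members, CHKB had the fewest counts in the controls, and the lowest value of any member in any library was 292 estimated counts, for ETNK2. Of 11 markers of the melanocyte lineage and melanoma, 6 had a mean of at least 1 TPM (transcript level corrected for length and scaled to the same total in every library), with SOX10 at 52.1 to 75.3 TPM and MITF at 12.7 to 16.5 TPM. The pigment genes MLANA, TYR, DCT and TYRP1 stayed under 1 TPM in every library, and PMEL was at 0.33 to 0.38 TPM in the controls and 1.11 to 1.36 TPM in the treated libraries. Of the other markers, S100B went from a mean of 26.5 to 4.28 TPM and NGFR from 13.0 to 41.6 TPM. Summed levels of the marker lists of other cell types were 12.4 to 14.4 TPM in the controls and 7.43 to 9.01 TPM in the treated libraries for 4 keratinocyte and epithelial genes, most of it KRT14, and 5.77 to 7.37 against 1.87 to 2.88 TPM for 5 blood genes, most of it LYZ. The lists for fibroblasts, endothelium and hepatocytes summed to 3.56 TPM or less in each library. The part of these genes in the results was not tested.

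The 10 members split into 3 sets after hMGL. SLC44A1, a choline carrier, ETNK2, an ethanolamine kinase, PCYT2, which activates phosphoethanolamine, and PEMT, which methylates PE, each fell at least 2-fold, and CHPT1, a choline phosphotransferase, fell less. PISD, which makes PE in mitochondria, and CEPT1, which completes PC and PE, rose. CHKA, CHKB and PCYT1A did not pass the test. In counts, 5 of 10 members fell and 2 rose, where 34.5% of the 22580 genes tested fell and 34.9% rose, so 7 calls among 10 members stand against a background of 69.4% called in either direction and are not a result about the members. A fall of at least 2-fold was seen in 4 of 10 members and in 12.6% of all genes tested. The median log2 fold change was -0.48 over the members and -0.02 over all genes tested. The members were chosen with earlier results of these data known, so these comparisons are a description and no test of the members. Libraries of the groups did not overlap for 7 members, 5 lower and 2 higher, and for 73.3% of all genes tested, 36.5% lower and 36.7% higher. Each fold change is relative to the other RNA of its library, and less RNA of a gene in every cell cannot be told apart from fewer cells that hold it.

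**Figure D1:**
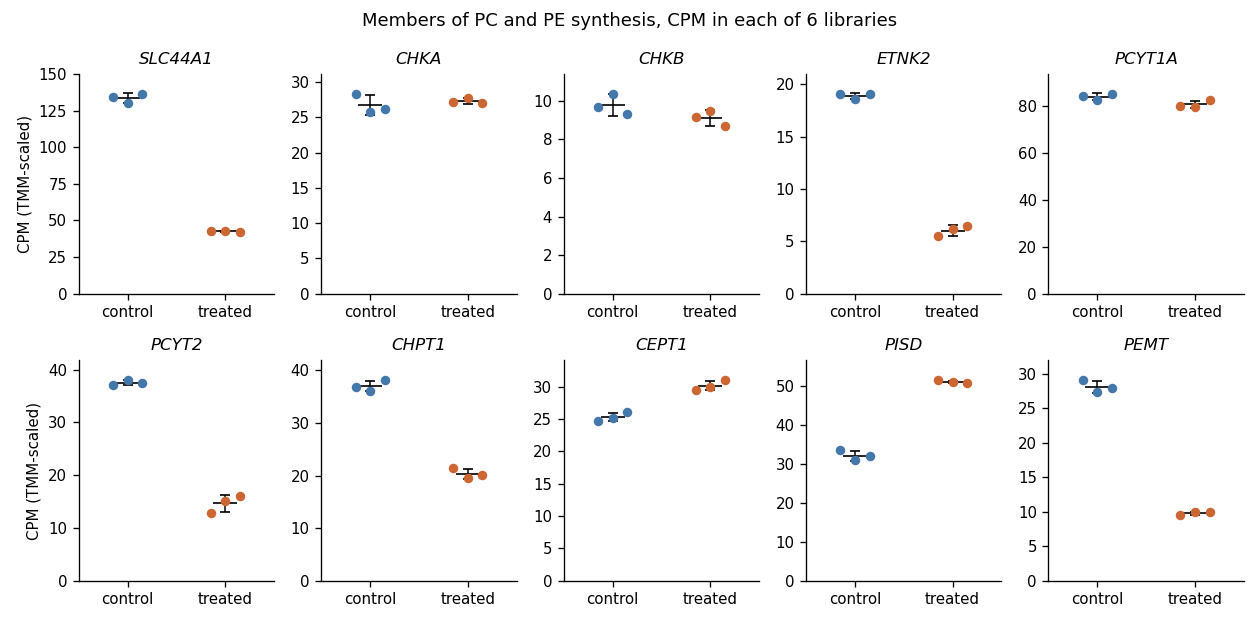
Level of the 10 members in each library, in CPM (estimated counts scaled to the same total in every library); each panel starts at 0, points are libraries (blue control, orange treated), and lines give the mean and SD of 3 libraries. The treated points lie below all control points for SLC44A1, ETNK2, PCYT2, CHPT1 and PEMT, and above them for CEPT1 and PISD.

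Entry of choline was represented by SLC44A1, a carrier of choline that also moves ethanolamine across the plasma and mitochondrial membranes. It was at 135, 130.0 and 137 CPM in control replicates 1 to 3, and at 42.7, 42.9 and 42.4 CPM in treated replicates 4 to 6. The treated libraries lay close together and far below every control. SLC44A1 fell by 1.65 on the log2 scale (SE 0.03, adjusted p = 2.68e-17, edgeR quasi-likelihood test with Benjamini-Hochberg adjustment over all genes), which is 3.13-fold lower. Of its coding transcripts that start at the same base and have 16 exons each, SLC44A1-203 and SLC44A1-201 end in different last exons, and SLC44A1-202, which shares the end of SLC44A1-201, was at 0.12 TPM or less in every library. SLC44A1-203 was at 10.7, 10.9 and 9.99 TPM in the controls and at 3.15, 3.25 and 3.20 TPM in the treated libraries. SLC44A1-201, the form with the long 3' end, was at 9.46, 9.06 and 8.42 TPM against 3.51, 3.02 and 2.88 TPM. Both forms therefore fell, by 1.78 and 1.58 on the log2 scale (adjusted p = 2.92e-05 and 4.25e-06 over all transcripts, edgeR). The test of isoform use called neither (adjusted p = 1.0 for both, diffSpliceDGE of edgeR). The share of SLC44A1-203 in the SLC44A1 TPM was 50.2 ± 0.54% in the controls and 42.0 ± 3.57% in the treated libraries, without overlap. In estimated counts its share differed by -2.87 percentage points, and the TPM shares of SLC44A1-201 overlapped. The minor transcript SLC44A1-206, without a coding sequence, was at 0.96 ± 0.21 TPM in the controls and 1.18 ± 0.24 TPM in the treated libraries (SD, n = 3 per group), so its share of the SLC44A1 TPM was 4.62% before and 15.4% after, while its share of the estimated counts differed by 1.03 percentage points. It did not pass the transcript test (adjusted p = 0.672).

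The first step inside the cell is phosphorylation. CHKA and CHKB are kinases of choline and ethanolamine, and ETNK2 is a kinase of ethanolamine. ETNK2 was at 19.1, 18.6 and 19.1 CPM in the controls and at 5.49, 6.17 and 6.45 CPM in the treated libraries, with no overlap. ETNK2 fell 3.14-fold, by 1.65 on the log2 scale (SE 0.07, adjusted p = 4.64e-13, edgeR). Its 4 main transcripts all had lower means after treatment, and 3 of them passed the transcript test, of which ETNK2-202 lost its call without control replicate 1 or 3 or treated replicate 4 or 5 (adjusted p = 0.0507 to 0.0657, edgeR). ETNK2-204 was the highest of them per length, at 3.51 ± 0.21 TPM in the controls and 1.16 ± 0.22 TPM in the treated libraries.

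CHKA was at 28.4, 25.8 and 26.2 CPM in the controls and at 27.1, 27.8 and 27.1 CPM in the treated libraries. The groups overlapped, and the log2 fold change was 0.03 (SE 0.05, adjusted p = 0.582, edgeR). On the TPM scale the treated libraries were all above the controls, at 19.0, 20.2 and 16.5 against 15.8, 15.7 and 13.9 TPM. With limma on log2(TPM + 1) CHKA passed as higher, with a log2 fold change of 0.28 (adjusted p = 0.0244), and it also passed with an offset for effective length (0.19, adjusted p = 0.0349) and with library totals alone (0.11, adjusted p = 0.0492). The call on CHKA thus turned on the unit and the scaling. The mean effective length of the CHKA transcripts, weighted by their TPM, was 1239 ± 41.8 bases in the controls and 1116 ± 91.4 bases in the treated libraries. An antisense gene, ENSG00000255031, shares 16.3% of the exon bases of CHKA on the opposite strand and fell from 2.61 to 0.66 CPM. Whether the reads were counted by strand is not given in the sources used here, so the reads of these genes cannot be told apart.

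The longer full-length forms of CHKA were unequal. CHKA-202 lacks coding exon 3 of CHKA-201, 54 bases or 18 whole codons on chromosome 11 (chr11:68081404-68081457, minus strand, GRCh38, GENCODE 29), and the sequences below are shown because this exon is the whole difference between their coding parts; the forms also differ in where they start and end. In the first, the exon is in capitals between 15 bases of each neighbouring exon in lower case, and the second shows the joined neighbours alone.
CHKA-201: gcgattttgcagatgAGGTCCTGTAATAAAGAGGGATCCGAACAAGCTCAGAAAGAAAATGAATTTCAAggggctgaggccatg
CHKA-202: gcgattttgcagatgggggctgaggccatg
CHKA-202, the form without the exon, was at 0.92, 1.04 and 0.89 TPM in the controls and at 2.06, 1.94 and 1.63 TPM in the treated libraries. CHKA-201, with the exon, was at 4.27, 3.65 and 3.31 TPM in the controls and at 3.57, 2.76 and 3.20 TPM after treatment. CHKA-202 rose by 0.91 on the log2 scale (SE 0.13, adjusted p = 0.0033, edgeR), while CHKA-201 did not pass (log2 fold change -0.30, SE 0.10, adjusted p = 0.0691). The share of CHKA-202 in the CHKA TPM was 6.30 ± 0.43% in the controls and 10.1 ± 0.66% in the treated libraries, without overlap, a difference of 3.80 percentage points in TPM and 7.91 in estimated counts. The test of isoform use called neither form (adjusted p = 0.665 for CHKA-202 and 0.965 for CHKA-201, diffSpliceDGE). It sets each form against the other CHKA transcripts, and a shift between these forms alone was not tested. The share of CHKA-201 in the CHKA TPM was 24.7 ± 1.96% in the controls and 17.2 ± 3.14% in the treated libraries, without overlap. Most of the CHKA TPM belonged to neither: CHKA-207, a transcript of 662 bases and 2 exons at the 3' end with no annotated coding sequence, held 47.4% of it in the controls and 45.8% after treatment. In estimated counts the order differed. CHKA-201 held 61.4% in the controls and 47.9% after treatment, and CHKA-207 held 21.3% and 23.0%.

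CHKB was at 9.68, 10.4 and 9.30 CPM in the controls and at 9.14, 9.50 and 8.68 CPM after hMGL. The groups overlapped, and CHKB did not pass (log2 fold change -0.10, SE 0.07, adjusted p = 0.228, edgeR). Values of CHKB are uncertain. The readthrough gene CHKB-CPT1B covers 72.5% of the CHKB exon bases on the same strand, so reads could be shared between them. Most CHKB signal was also outside the coding form: the retained-intron transcript CHKB-204 alone held 41.6% of the CHKB TPM in the controls and 43.7% in the treated libraries, while coding CHKB-201 was at 0.17 ± 0.06 and 0.25 ± 0.03 TPM. CHKB-212, also with a retained intron, held 16.4% and 7.83% of the TPM, without overlap, and 39.2% and 19.9% of the estimated counts. It alone was called among CHKB transcripts (-1.07, SE 0.30, adjusted p = 0.0410, edgeR). The call was lost without control replicate 2 or 3 or treated replicate 5 or 6 (adjusted p = 0.0689 to 0.127). With protein-coding transcripts alone the log2 fold change of CHKB was 0.47 (adjusted p = 0.236), and with limma on log2(TPM + 1) it was 0.06 (adjusted p = 0.666), so not even its sign was settled.

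The cytidylyl transferases, which make the activated CDP intermediates, differed from each other. PCYT1A makes CDP-choline, the step held to limit PC synthesis, and PCYT2 makes CDP-ethanolamine. PCYT1A was at 84.1, 82.4 and 85.3 CPM in the controls and at 80.0, 79.7 and 82.5 CPM in the treated libraries. One treated library lay within the controls, and PCYT1A did not pass (log2 fold change -0.06, SE 0.03, adjusted p = 0.140, edgeR). PCYT2 was at 37.1, 37.97 and 37.5 CPM in the controls and at 12.8, 15.04 and 16.0 CPM after treatment. All treated libraries were far below the controls, and PCYT2 fell 2.57-fold, by 1.36 on the log2 scale (SE 0.07, adjusted p = 2.11e-09). Its coding transcripts PCYT2-203 and PCYT2-214 fell by 1.43 and 1.56 (adjusted p = 0.0002 and 0.0024, edgeR), and PCYT2-202 did not pass (-0.87, adjusted p = 0.0777). NPB, a gene on the opposite strand that did not pass the filter on low counts, shares 28.1% of the PCYT2 exon bases.

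For PCYT1A the unit mattered. Per length the gene was at 36.2, 35.4 and 32.3 TPM in the controls and at 30.0, 27.6 and 27.8 TPM in the treated libraries, with no overlap. With limma on log2(TPM + 1) it passed as lower (-0.27, adjusted p = 0.0137), and with an offset for effective length it passed too (-0.39, adjusted p = 8.85e-06). The mean effective length of its transcripts, weighted by TPM, was 1696 ± 25.7 bases in the controls and 2143 ± 22.3 bases after treatment. Among its transcripts, the long transcript PCYT1A-206 (5546 bases) held 20.6 ± 0.44% of the PCYT1A TPM in the controls and 28.5 ± 0.46% in the treated libraries, and the short coding fragment PCYT1A-207 (411 bases) was at 6.26 ± 0.69 against 3.50 ± 1.19 TPM. In estimated counts PCYT1A-206 held most of the gene, 69.6 ± 0.90% in the controls and 77.1 ± 1.93% in the treated libraries. Neither PCYT1A-206 (adjusted p = 0.0518) nor PCYT1A-207 (adjusted p = 0.0681) passed the transcript test. The coding form PCYT1A-202, with the largest share of the PCYT1A TPM in the controls (25.5%), was at 8.48, 9.85 and 8.15 TPM in the controls and at 7.45, 6.02 and 7.44 TPM after treatment. It passed narrowly as lower (-0.39, adjusted p = 0.0483, edgeR) and lost the call when any one library other than treated replicate 6 was left out (adjusted p = 0.0646 to 0.134). PCYT1A-213, a retained-intron transcript named to complete the transcripts called, fell by 0.94 (adjusted p = 0.0212), from 2.67 ± 0.33 to 1.44 ± 0.18 TPM. The test of isoform use called no PCYT1A transcript.

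The last step joins the activated head group to diacylglycerol. CHPT1 does this for choline, and CEPT1 for choline and ethanolamine. CHPT1 was at 36.8, 36.1 and 38.1 CPM in the controls and at 21.4, 19.6 and 20.1 CPM in the treated libraries. It fell 1.82-fold, by 0.86 on the log2 scale (SE 0.04, adjusted p = 6.27e-12, edgeR). CEPT1 was at 24.7, 25.1 and 26.0 CPM in the controls and at 29.5, 30.0 and 30.9 CPM after treatment. CEPT1 rose 1.19-fold, by 0.25 on the log2 scale (SE 0.04, adjusted p = 3.12e-05). This small rise held in each library but did not pass a test against a change of 1.5-fold (adjusted p = 1.0), a test that 35.4% of all genes passed, 16.7% as lower and 18.7% as higher. Of the members called, the other 6 passed that test, 5 as lower and PISD as higher (adjusted p = 0.0143). Of 7 CEPT1 transcripts tested, 2 rose, CEPT1-201 and CEPT1-202, 1 fell and 4 did not pass. CEPT1-201 lost its call without control replicate 2 or 3 (adjusted p = 0.0666 and 0.0639, edgeR). CEPT1-202 lost its call without control replicate 1 or 2 or any 1 treated replicate (adjusted p = 0.0585 to 0.102, edgeR).

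Transcripts of CHPT1 were not resolved. CHPT1-201, the coding form, was at 8.04, 12.5 and 10.99 TPM in the controls and at 7.51, 4.32 and 3.63 TPM in the treated libraries. CHPT1-210, annotated as a target of nonsense-mediated decay, was at 4.27, 0 and 0 TPM in control replicates 1 to 3 and at 0, 2.38 and 2.10 TPM in treated replicates 4 to 6. These forms traded signal within a group, and their sum was steadier, at 12.3, 12.5 and 10.99 TPM against 7.51, 6.70 and 5.72 TPM. CHPT1-201 passed as lower (-1.13, adjusted p = 0.0279) but lost the call without control replicate 2 or 3 or treated replicate 5 or 6 (adjusted p = 0.0807 to 0.0958, edgeR).

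PISD decarboxylates phosphatidylserine to PE in mitochondria. It was at 33.5, 30.9 and 32.0 CPM in the controls and at 51.54, 51.15 and 51 CPM in the treated libraries. The groups lay apart, and PISD rose 1.59-fold, by 0.67 on the log2 scale (SE 0.04, adjusted p = 3.08e-11, edgeR). The main coding form PISD-209 was at 3.91, 4.40 and 3.89 TPM in the controls and at 7.99, 7.34 and 7.73 TPM after treatment, and it rose by 0.85 (SE 0.07, adjusted p = 0.0004). Processed transcripts PISD-216 and PISD-215 did not pass, at 1.41 against 1.42 TPM and 1.01 against 1.04 TPM. Some minor coding forms that begin inside the gene were also higher, and they are named after their values were seen. PISD-204 was at 0.12 ± 0.03 TPM in the controls and 0.93 ± 0.32 TPM after treatment. PISD-201 had 0 estimated counts in each control library and 45.2, 31.7 and 80.6 in the treated libraries. The mean CPM of the treated libraries was 18.8-fold higher than a floor of 3 counts per control library. PISD-201 passed the filter on low counts only through the treated libraries.

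PEMT, the methyltransferase that uses S-adenosylmethionine, was at 29.1, 27.4 and 27.9 CPM in the controls and at 9.54, 9.92 and 9.91 CPM in the treated libraries. The treated values lay close together, far below all controls. PEMT fell 2.88-fold, by 1.52 on the log2 scale (SE 0.05, adjusted p = 2.40e-14, edgeR). The largest share of its TPM, 60.8% in the controls, belonged to PEMT-213, a transcript of 383 bases in 2 exons at the 3' end (chr17:17505563-17506323, GRCh38) with no annotated coding sequence. In estimated counts of the controls PEMT-213 held 31.7%, and the coding form PEMT-201 held 50.8%. PEMT-213 was at 20.5, 17.1 and 15.4 TPM in the controls and at 6.40, 5.28 and 4.87 TPM after treatment. With protein-coding transcripts alone, PEMT fell by 1.47 (adjusted p = 2.05e-08), so the fall did not rest on this fragment.

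The full-length PEMT forms start at different places. PEMT-201 (708 coding bases) starts at position 17591700 of chromosome 17 and PEMT-203 (597 coding bases) at 17577465, inside the first intron of the longer form. The bases before these starts are shown because both forms became less abundant, and those before SLC44A1 for comparison with the other member of deep fall and high level. They are from RefSeq (GRCh38.p14), from 250 bases before the RefSeq start up to the base before it (for SLC44A1 up to 30 bases before it, where its transcripts begin), at chr17:17591709-17591958 (minus strand), chr17:17577497-17577746 (minus strand) and chr9:105244401-105244621 (plus strand). Capitals mark matches to the motifs named after them.
PEMT distal start: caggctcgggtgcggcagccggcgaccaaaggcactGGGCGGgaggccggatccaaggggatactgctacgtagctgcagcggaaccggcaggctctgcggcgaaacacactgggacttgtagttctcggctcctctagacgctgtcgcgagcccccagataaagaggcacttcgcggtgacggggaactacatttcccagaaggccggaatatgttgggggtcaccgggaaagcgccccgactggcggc
PEMT proximal start: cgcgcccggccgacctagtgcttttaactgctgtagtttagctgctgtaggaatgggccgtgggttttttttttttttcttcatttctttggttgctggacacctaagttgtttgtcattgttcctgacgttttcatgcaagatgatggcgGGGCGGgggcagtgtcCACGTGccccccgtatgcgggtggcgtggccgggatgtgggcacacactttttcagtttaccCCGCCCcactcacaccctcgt
SLC44A1 start: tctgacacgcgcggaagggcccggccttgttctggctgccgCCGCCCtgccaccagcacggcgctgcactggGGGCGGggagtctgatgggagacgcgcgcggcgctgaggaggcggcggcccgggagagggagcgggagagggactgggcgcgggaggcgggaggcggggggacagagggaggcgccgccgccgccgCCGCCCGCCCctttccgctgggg
PEMT-201 was at 8.29, 7.63 and 7.26 TPM in the controls and at 3.34, 2.30 and 2.83 TPM in the treated libraries. PEMT-203, below the 10% share that named the other transcripts and described for its start, was at 2.02, 2.95 and 2.34 TPM against 0.75, 1.38 and 0.87 TPM. The groups were apart for both forms. PEMT-201 fell by 1.53 (SE 0.12, adjusted p = 0.0003, edgeR) and PEMT-203 by 1.34 (SE 0.32, adjusted p = 0.0226), the second losing its call without control replicate 2 or 3 or treated replicate 4 or 6 (adjusted p = 0.0547 to 0.0805). The test of isoform use called neither (adjusted p = 1.0 for both).

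The motifs were searched on both strands in RefSeq windows from 250 bases before to 50 after a start, 14 windows for 9 members, of 35116 windows in all. TGATGNAAN, the composite element bound by C/EBP and ATF factors, was in 1 member window, that of PCYT1A on the opposite strand at base -5 from the start, and in 3.61% of all windows. CACGTG, the E-box, was in 1 member window, the proximal start of PEMT at base -83, and in 7.26% of all. TCACNCCAC, one form of the sterol regulatory element, was in no member window and in 1.13% of all. CCAAT was in those of PCYT2, PISD and CHKB and in 34.6% of all. GGGCGG, the GC box, was in 10 of the 14 and in 45.0% of all, and it is the motif of all other capitals printed above. These matches describe letters and were not tied to binding.

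**Figure D2:**
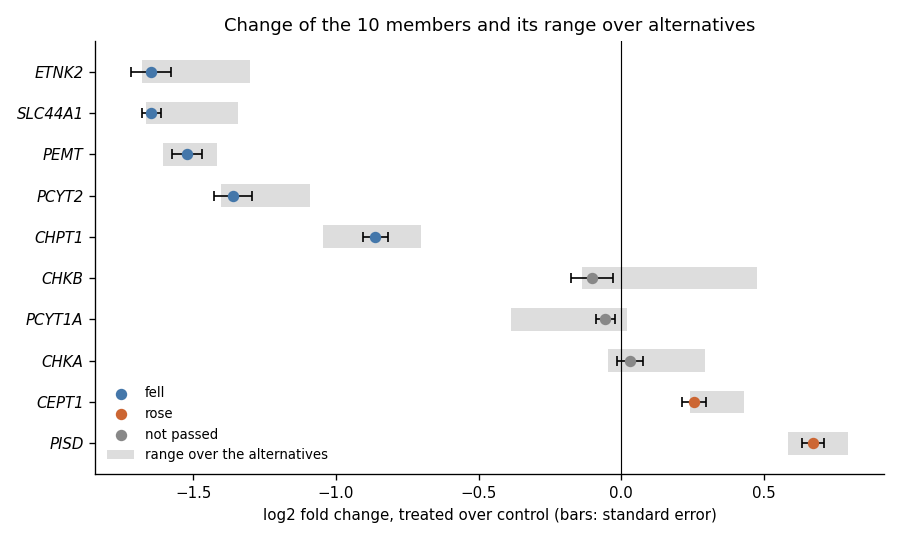
Log2 fold change (treated over control) of each member with its standard error; grey bars give the lowest and highest value over the alternative settings. The 5 members that fell and the 2 that rose keep their sign over these ranges, and the bars of CHKA, CHKB and PCYT1A cross 0.

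Isoform use was tested for 76 member transcripts of 122 listed. At the transcript level 16 fell, 6 rose and 54 did not pass, where 15.2% of all 83015 transcripts tested fell and 17.5% rose. With 1 library left out, 9 to 14 member transcripts fell, the count dropping to 10, 9 and 10 without control replicate 2, control replicate 3 and treated replicate 5. Among the 33 transcripts with at least 10% of their gene's TPM, 13 fell and 4 rose. Relative to its gene as a whole, 2 of 76 member transcripts were called (background 3.28%), both minor forms, PEMT-212 and PISD-201, named after their values were seen. Both passed the filter on low counts only through the treated libraries, where they were high, so these calls are given as a description. PEMT-212, annotated as a target of nonsense-mediated decay, was at 0.10, 0.17 and 0 TPM in the controls and at 0.31, 0.55 and 0.22 TPM after treatment. It rests on at most 32.4 estimated counts in a library. Its call was lost without the filter on low counts (adjusted p = 0.151, diffSpliceDGE). The call of PEMT-212 was also lost without control replicate 1, 2 or 3 or treated replicate 5 (adjusted p = 0.0596 to 0.194). The counts of PISD-201 are those given above, 0 in every control library. PISD-201 lost its call without control replicate 1 or 3 (adjusted p = 0.0927 and 0.0655, diffSpliceDGE). No transcript of the other members passed this test, which does not show that their isoform use was the same. The TPM shares given above for SLC44A1-203, SLC44A1-206, CHKA-201, CHKA-202, CHKB-212 and PCYT1A-206 did not overlap between groups. Nor did that of PEMT-213, at 60.8 ± 3.19% in the controls and 53.8 ± 3.77% in the treated libraries. How often shares did not overlap over all transcripts was not determined, so nothing particular to these forms is read from this.

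**Figure D3:**
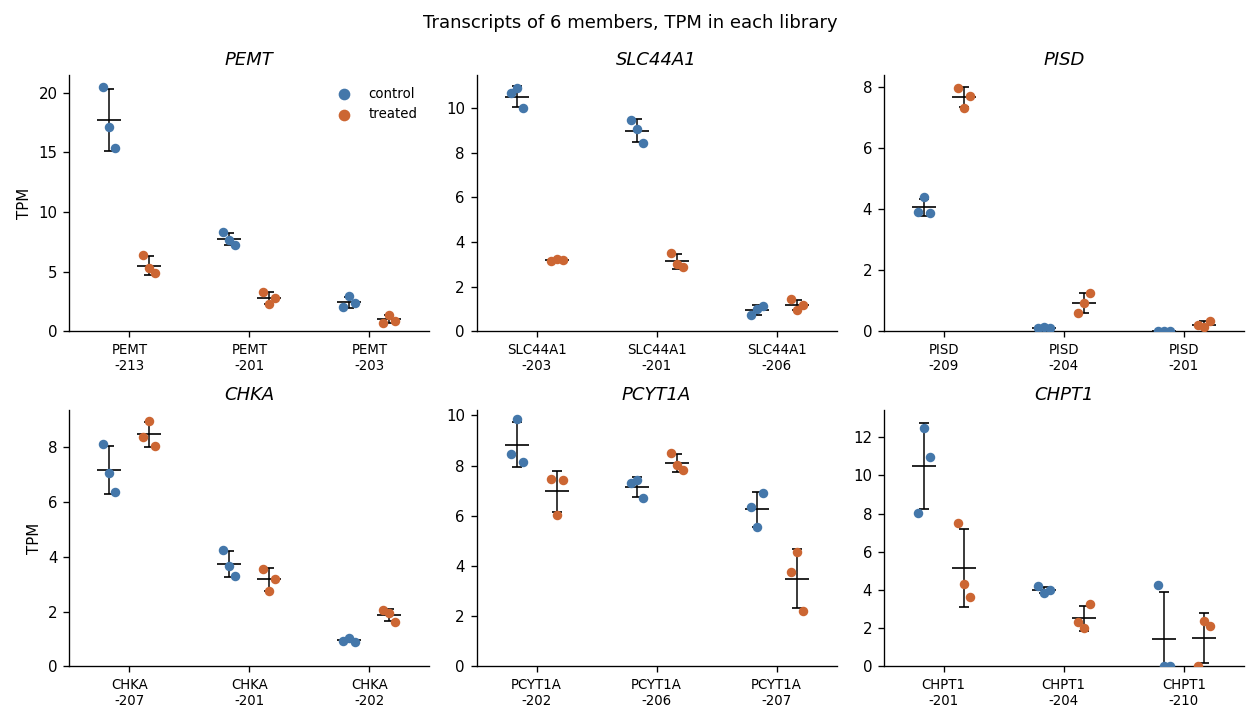
TPM of 3 transcripts in each of 6 members; every axis starts at 0, points are libraries (blue control, orange treated), and lines give the mean and SD of 3 libraries. PEMT-213, PEMT-201 and PEMT-203 are all lower after treatment, CHKA-202 is higher while CHKA-201 is not, and CHPT1-201 and CHPT1-210 trade signal between libraries of a group.

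Per length, the order of the members changed. In the controls PCYT1A was highest at 34.6 ± 2.06 TPM, before PEMT (28.99 ± 2.78), SLC44A1 (20.9 ± 0.80), CHPT1 (20.0 ± 1.78), CHKA (15.1 ± 1.07), CEPT1 (13.8 ± 0.63), PISD (9.80 ± 1.09), PCYT2 (9.39 ± 0.65), ETNK2 (8.39 ± 0.48) and CHKB (5.72 ± 0.94). The library ranges of SLC44A1 and CHPT1 overlapped, as did those of CHKA and CEPT1, of PISD and PCYT2, and of PCYT2 and ETNK2. In the treated libraries PCYT1A was again highest at 28.5 ± 1.34 TPM, followed by CHKA (18.6 ± 1.87) and CEPT1 (18.6 ± 1.27), whose ranges overlapped. PISD moved up past CHPT1, with 15.8 ± 1.37 against 11.9 ± 0.91 TPM, and PEMT at 10.2 ± 0.80 TPM and SLC44A1 at 7.66 ± 0.57 TPM moved down past all 4 of these. CHKB (6.01 ± 0.68), PCYT2 (3.86 ± 0.09) and ETNK2 (2.81 ± 0.22) closed the order, with no overlap between neighbours from CEPT1 down.

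Ratios within a library do not depend on scaling between libraries, and 5 pairs of paralogs or alternative routes were compared. With 3 against 3 libraries, the exact two-sided permutation test cannot give less than p = 0.1. PCYT1A over PCYT2 had log2 ratios of 1.18, 1.12 and 1.18 in the controls and 2.64, 2.41 and 2.37 after treatment, a difference of 1.31. CEPT1 over CHPT1 turned from -0.57, -0.53 and -0.55 to 0.46, 0.61 and 0.63, so the less abundant of these phosphotransferase mRNAs by counts became the more abundant one. PEMT over PISD, the enzyme that uses PE over one that makes it, went from -0.21, -0.17 and -0.20 to -2.43, -2.37 and -2.36, a difference of -2.20. PEMT over PCYT1A, the methylation route over the CDP-choline route to PC, went from -1.58 ± 0.04 to -3.05 ± 0.03, a difference of -1.47. These 4 pairs did not overlap between groups (exact p = 0.1 for each, the smallest possible, and adjusted p = 0.125 over 5 pairs). CHKA over CHKB overlapped, with a difference of 0.13 (exact p = 0.2). As a ratio of TPM its difference was 0.22 (exact p = 0.1), so this pair depends on the unit.

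**Figure D4:**
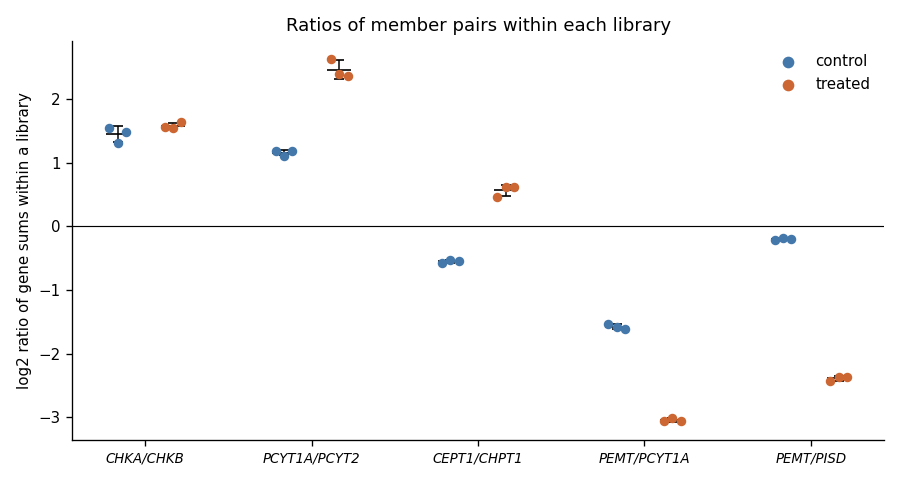
Log2 ratio of the summed estimated counts of 2 members within each library for 5 pairs; points are libraries (blue control, orange treated), and lines give the mean and SD of 3 libraries. CEPT1 over CHPT1 crosses 0, and PEMT over PISD drops from near 0 to a mean of -2.39 in all 3 treated libraries.

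Neighbouring steps were read from 7 lists of 60 genes, 54 of them tested. Of these, 32 fell, 12 rose and 10 did not pass, where 34.5% of all genes tested fell and 34.9% rose. The median log2 fold change was -0.38 against -0.02 over all genes. The lists, too, were chosen with earlier results of these data known. The counts for single lists below stand against the same background, and nothing particular to a list is read from them. Of 6 other choline and ethanolamine carriers, 1 fell and 1 rose, the latter count becoming 3 with library totals alone. SLC44A2, a relative of SLC44A1, fell from 42.8 ± 1.19 to 27.0 ± 0.57 CPM (1.59-fold). FLVCR2, a choline carrier of low level here, rose from 0.85 ± 0.16 to 1.60 ± 0.27 CPM (adjusted p = 0.0008, edgeR), and FLVCR1 did not pass (44.7 ± 1.11 against 46.6 ± 3.12 CPM, adjusted p = 0.256).

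The other enzymes of the CDP and phosphatidylserine routes all fell, 5 of 5, with a median of -0.33. PCYT1B, the paralog of PCYT1A, fell 4.24-fold from 10.0 ± 0.37 to 2.37 ± 0.37 CPM (adjusted p = 7.08e-12, edgeR). PTDSS1, which makes phosphatidylserine from PC, fell 1.26-fold from 154 ± 2.50 to 123 ± 1.27 CPM, but did not pass with limma on log2(TPM + 1) (-0.21, adjusted p = 0.0515) or with protein-coding transcripts alone (-0.35, adjusted p = 0.0883). PTDSS2, which makes it from PE, fell 1.64-fold by counts (22.4 ± 0.71 to 13.6 ± 0.48 CPM), but with limma on log2(TPM + 1) its log2 fold change was 0.02 (adjusted p = 0.908), so its direction depends on the unit. In a test against 1.5-fold 2 of these 5 genes fell, and with limma on log2(TPM + 1) 1 of 5. Ethanolamine kinase ETNK1, the relative of ETNK2, fell less than ETNK2 did, by 0.26, and SELENOI, the ethanolamine phosphotransferase, by 0.33, both named to complete the list.

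Supply of phosphatidate and diacylglycerol was mixed, with 4 of 11 genes higher and 6 lower (median -0.70). GPAM and GPAT4, acyltransferases of the first step, rose, GPAM from 29.7 ± 1.51 to 67.1 ± 1.34 CPM (2.26-fold) and GPAT4 1.37-fold. The next step, which makes phosphatidate, had AGPAT1 and AGPAT2 lower, 2.26-fold and 1.83-fold, and AGPAT5 1.28-fold higher. AGPAT3 fell 2.22-fold by counts, but with limma on log2(TPM + 1) its log2 fold change was -0.19 (adjusted p = 0.144).

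Acyl chain remodelling had the lowest median of the lists, -1.62, with 6 of 7 genes lower and 0 higher. LPCAT1, which acylates lysophosphatidylcholine, fell 6.46-fold from 107 ± 4.72 to 16.6 ± 1.29 CPM (adjusted p = 4.20e-14, edgeR). LPCAT4 fell 5.99-fold from 30.0 ± 0.66 to 5.00 ± 0.15 CPM. MBOAT7, which acts on lysophosphatidylinositol and not on PC or PE, fell 3.08-fold. MBOAT1 alone did not pass (adjusted p = 0.386).

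Breakdown of PC and PE was split, with 8 of 12 genes lower and 4 higher (median -0.57). PLD2 and PLD1, phospholipases that release choline from PC, fell 4.42-fold and 2.26-fold, and PNPLA6, which removes the acyl chains of PC, fell 2.04-fold. The phosphodiesterases of glycerophosphocholine GPCPD1 and GDPD5 moved the other way: GPCPD1 rose 3.25-fold from 18.6 ± 0.19 to 60.7 ± 1.60 CPM (adjusted p = 8.48e-17, edgeR) and GDPD5 1.69-fold. GDPD1 and GDPD3, named here as relatives of GDPD5, fell by 0.31 and 0.67 (adjusted p = 0.0460 and 0.0426, edgeR). Both were low, at 3.24 and 0.76 CPM in the controls. The libraries of GDPD3 overlapped between groups. Its log2 fold change ran from -0.90 to 0.66 over the alternative settings, so its sign was not settled. PLA2G15, a lysosomal phospholipase, rose 1.38-fold.

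Choline oxidation and phosphoester genes gave 2 lower and 1 higher of 5 tested. ALDH7A1, which oxidizes betaine aldehyde among other aldehydes, fell 2.28-fold from 85.8 ± 2.66 to 37.7 ± 0.71 CPM. PHOSPHO1, a phosphatase of phosphocholine and phosphoethanolamine, and DMGDH, which acts on dimethylglycine, were both under 1 CPM in each group mean (PHOSPHO1 0.56 to 0.12 CPM, lower; DMGDH 0.17 to 0.83 CPM, higher). With a stricter filter on low counts the list had 1 gene lower and 0 higher, and with protein-coding transcripts alone 0 higher. With limma on log2(TPM + 1) the log2 fold change was -0.11 for PHOSPHO1 and 0.83 for DMGDH. Among 8 users and movers of PC, 2 rose and 4 fell. The risers were the sphingomyelin synthases, which take the head group of PC: SGMS2 rose 7.59-fold from 2.18 ± 0.35 to 16.6 ± 1.08 CPM and SGMS1 2.13-fold from 12.2 ± 0.61 to 26.0 ± 0.59 CPM. The transfer proteins PITPNA, PITPNB and STARD7 fell, 1.77-fold, 1.55-fold and 1.34-fold.

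**Figure D5:**
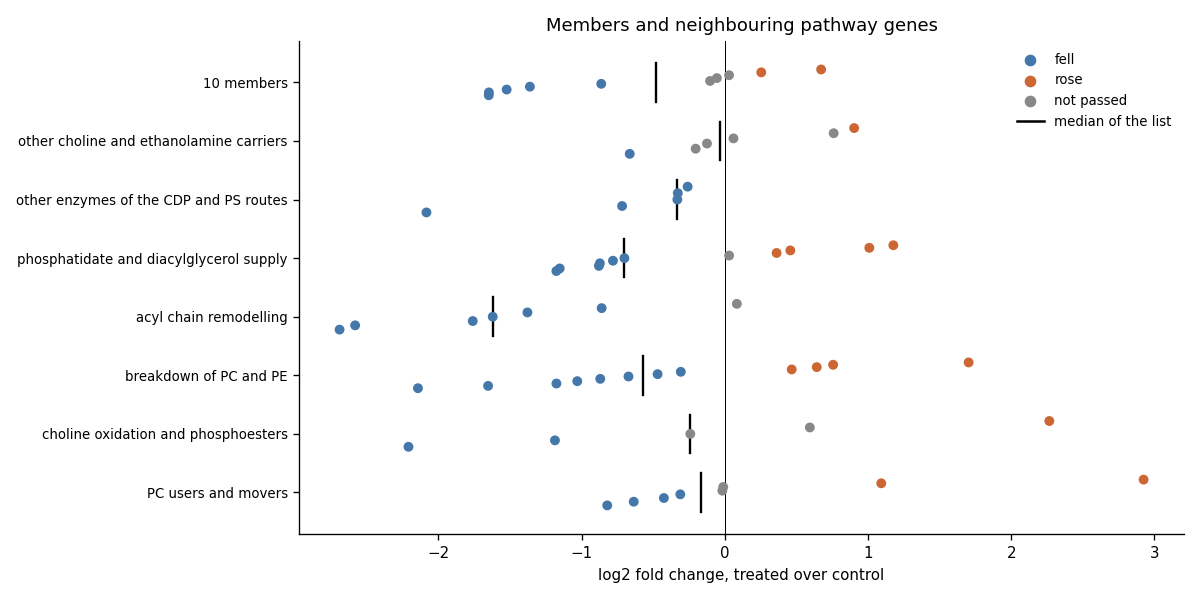
Log2 fold change (treated over control) of the 10 members and of the tested genes of 7 neighbouring lists; each point is a gene (blue fell, orange rose, grey not passed) and the vertical bar is the median of the list. Acyl chain remodelling has its median at -1.62, while the sphingomyelin synthases are the far right points among the users of PC.

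The genes whose pattern over the 6 libraries was most like that of PEMT, by the root mean square difference of centred log2 CPM over 9827 genes, were MCM2, HSP90AB1, ARHGAP4, PAICS and ACOT7. Their log2 fold changes lay between -1.54 and -1.51, beside -1.52 for PEMT, with differences of 0.013 to 0.023. Since the libraries form 2 groups, such a likeness is for the most part a like fold change. Their levels were far apart, from 44.4 CPM for ARHGAP4 to 2134 CPM for HSP90AB1 in the controls.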

How the data were processed

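Transcript abundance was measured by RNA-seq in 3 untreated and 3 hMGL-treated A375 cultures, described in the series design as independent. Per the file headers, the deposited tables hold estimated counts and TPM per transcript with its length and effective length. Among tools, kallisto (0.45.0) and DESeq2 (1.30.0) are listed in the submitters' processing notes, with no role stated; the genome build, transcript release and library selection are not given in the sources used here.

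Of 244939 transcripts, 203436 were matched to GENCODE 29 (GRCh38) and summed to genes. The other 41503, with 4.86% to 5.13% of a library's counts, were left out, so a gene's level can be a part of its total. Of 122 member transcripts, 10 have another length than in GENCODE 29. Sums were rounded, filtered with filterByExpr (minimum count 10, total 15), scaled by TMM and tested with edgeR 4.0.16 (quasi-likelihood, R 4.3.3). Adjusted p values are Benjamini-Hochberg over all genes or transcripts tested, with a threshold of 0.05; SE is the log2 fold change divided by the square root of F. CPM values use TMM-scaled sizes, errors are SD over 3 libraries, and fold changes are treated over control. Isoform use was tested with diffSpliceDGE. DESeq2 1.42.0 and limma 3.58.1 were alternatives. The tests were also run on simulated counts with a coefficient of variation of 0.074, that of the genes here. That of the transcripts here was 0.473. The simulation therefore cannot show how the transcript and isoform tests perform on these data. Reads shared between transcripts add error that these tables do not show.

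Beside the 10 members, up to 3 genes that rose and 3 that fell with the lowest adjusted p were named from each list. Transcripts were taken from the 33 with at least 10% of their gene's TPM. Not all of these 33 are described, and some of those left out were called. Genes and transcripts named outside these rules are marked. The members and lists were chosen with earlier results of these data known.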

Additional observations from a re-analysis of the deposited data

How the results depend on the processing

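The 5 members that fell and the 2 that rose kept their sign under 16 alternatives (DESeq2, other scalings, filters, TPM, effective length, protein-coding transcripts alone, a test against 1.5-fold, and each library left out in turn). Of 160 member values under these alternatives, 147 kept their side of the threshold and sign, 7 passed where the main value had not (3 of PCYT1A, 4 of CHKA), 1 lost its call (CEPT1 against 1.5-fold) and 5 changed sign. The sign changes were all of members that did not pass: CHKA was at -0.048 with protein-coding transcripts alone, CHKB at 0.065 and 0.076 with limma on log2(TPM + 1) and log2(TPM + 0.1) and at 0.47 with protein-coding transcripts alone, and PCYT1A at 0.020 with library totals alone. On the log2 scale, the middle value over the genes tested lay at 0.06 with library totals alone and at -0.02 with the main scaling. PTDSS2 was at 0.016 and 0.018 with these limma settings. The test against 1.5-fold called 7987 genes and 1 rising member. Member transcripts that rose numbered 10 with either limma setting against 6, and those past the test of isoform use 1 without the filter on low counts against 2. With 1 library left out, 9 to 14 member transcripts fell and 0 to 3 passed the test of isoform use. The ratio of CHKA to CHKB differed by -0.62 with protein-coding transcripts alone (exact p = 0.2). The cause of these shifts was not tested, apart from the 1.5-fold test, which asks for a larger change. No paired analysis was possible because the control and treated cultures share no replicate number. Low counts of CHKB, ETNK2 and of single transcripts limit the precision of their values.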
